A study of Mus musculus with 19 samples.

Results

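Cholesterol and fatty acid synthesis was examined through 29 genes, which are the 29 of 33559 rows of the deposited bulk RNA-seq table that carry their symbols. They comprise 19 enzymes of the sterol branch, 7 enzymes of the fatty acid branch and 3 regulators (Srebf1, Srebf2 and Insig1). The table held bone marrow monocytes, blood cell precursors of many tissue macrophages, from wild-type mice. In 3 libraries the treatment is given as GCSF (G-CSF replicates 1 to 3), the cytokine that drives granulocyte production, and in 2 libraries as none (control replicates 1 and 2). Genotype, tissue and cell type are the same in all 5 libraries, and the labels used here give no age, dose, route or duration and no method of isolating the monocytes. Whether each replicate is a separate animal is not stated either, and the p-values below measure only library-to-library spread, which may be technical. The other 14 samples of the series, single-cell libraries of skin, were not analysed here.

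Both branches start from acetyl-CoA in the cytosol. In the sterol branch, acetyl-CoA is built into mevalonate and then into isoprenoid units, which are joined to squalene, closed to a ring and trimmed to cholesterol. In the fatty acid branch, acetyl-CoA is carboxylated, assembled into palmitate, and then lengthened and desaturated. The transcription factors SREBP2, encoded by Srebf2, and SREBP1, encoded by Srebf1, switch on the sterol and the fatty acid genes with some overlap. INSIG1, encoded by Insig1, takes part in keeping them in the endoplasmic reticulum when sterol is plentiful.

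The comparison asks whether transcript levels of these genes differ with G-CSF treatment. Levels are in FPKM, which divides a gene's fragments by its length and by the size of the library, so that genes can be compared with each other. Differences are G-CSF minus control on the log2(FPKM + 1) scale, with the standard error and the Benjamini-Hochberg adjusted p of limma over 16791 genes with at least 1 FPKM in at least 2 libraries. All 29 genes met that minimum. None of the 29 passed an adjusted p of 0.05, in either direction, where 0.00596% of all genes tested were called higher and 0% lower, and the adjusted p ranged from 0.248 to 0.955. At an unadjusted limma p under 0.05, 5 of the 29 genes were higher, all in the sterol branch (Hmgcs1, Fdps, Idi1, Pmvk and Ebp), and 0 were lower, against 7.90% and 4.76% of all genes. Limma on protein-coding genes alone, which called 0.285% of them higher and 0.0285% lower, called 0 of the 29, and voom on recovered reads, which called 0.0544% and 0.0136%, called 0 of the 28 that had such reads.

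The difference was positive for 25 of the 29 genes, against 56.3% of all genes tested, and the median was 0.45, against 0.08 for all genes. Among protein-coding genes 6307 of 10524 were positive, with a median of 0.12. In 14 of the 29 genes all 3 G-CSF libraries lay above both controls, against 20.0% of all genes tested and 23.7% of protein-coding ones. In 1 gene, Hsd17b7, they lay below both, against 11.9%, and in the remaining 14 genes the groups overlapped. The sterol branch had 16 of 19 genes positive and a median of 0.45, and 10 of its genes lay above both controls. The fatty acid branch had 6 of 7 positive and a median of 0.52, and 3 of its genes lay above both controls. Leaving out control replicate 2 made that median 0.19, and leaving out control replicate 1 made it 0.25, below the sterol medians of 0.46 and 0.65 in the same fits. The medians of all genes in these 2 fits were 0.05 and 0.19. These shares describe a list chosen with results of these libraries known, and they carry no test.

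**Figure D1:**
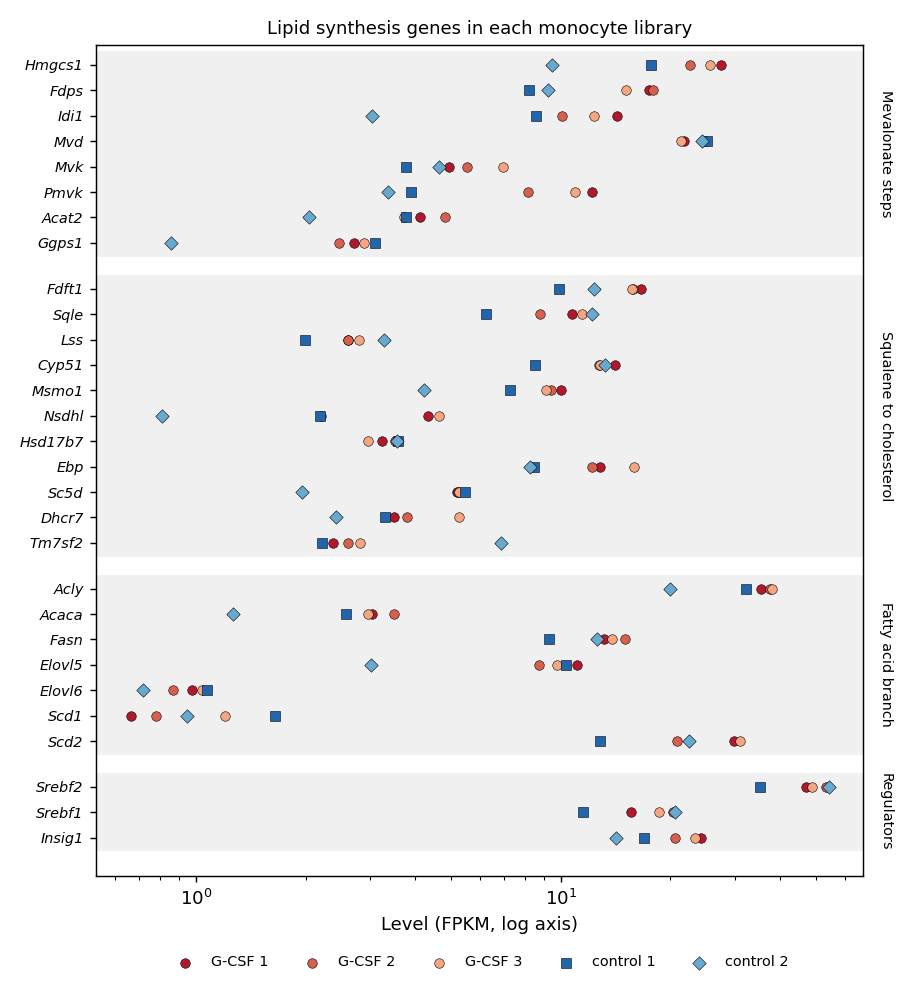
Level in FPKM on a log axis of the 29 genes in each library, with 3 G-CSF libraries as circles and the 2 controls as a square and a diamond. For Pmvk and Ebp the circles lie to the right of both controls, which lie close together, whereas for Idi1, Sc5d, Elovl5 and Tm7sf2 control replicate 2 lies far from control replicate 1.

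Recovered reads, a lower bound of depth, numbered 5911052 to 6988609 in the G-CSF libraries, against 5981805 and 2923773 in control replicates 1 and 2. Control replicate 2 stood apart in the sum of its FPKM column, which was 586197 to 1577090 in the G-CSF libraries, against 392646 in control replicate 1 and 3299131 in control replicate 2. Over the protein-coding genes tested the sums were alike, at 198280 to 220019 with G-CSF, against 181446 and 227008 without. For the 29 genes the highest G-CSF library was a median of 1.19 times the lowest, while the higher control was a median of 1.65 times the lower, and over 15387 tested genes above 0 in every library these ratios were 1.38 and 1.79. Summed levels of 8 monocyte markers were 370 to 467 FPKM with G-CSF, against 163 to 227 without. Those of 9 mature neutrophil markers were 4121 to 6266 FPKM with G-CSF, against 2061 to 10987 without, of 5 granulocyte progenitor markers 515 to 659 against 94.4 to 207, and of 8 macrophage markers 723 to 1218 against 483 to 1471. B cell markers (7) summed to 57.7 to 77.1 against 107 to 201 FPKM, erythroid markers (5 of 6 in the table) to 1.32 to 2.46 against 6.44 to 8.66, eosinophil and basophil markers (4) to 49.0 to 66.3 against 88.4 to 185, and stromal cell and adipocyte markers (5 of 6 in the table) to 0.646 to 0.896 against 5.56 to 17.9. Proliferation markers (14) summed to 174 to 207 against 187 to 234, megakaryocyte markers (5) to 348 to 555 against 276 to 748, dendritic cell markers (4) to 1.86 to 3.09 against 4.23 to 6.20 and T and NK cell markers (6) to 7.93 to 12.1 against 3.05 to 6.42 FPKM. The proliferation sum does not give the direction of most of its genes, since 10 of the 14 had positive differences, against 56.3% of all genes. Of the 14, 0 lay above both controls and 1 below them, against 20.0% and 11.9% of all genes. Of the 8 monocyte markers 6 had positive differences, 6 lay above both controls and 1 below them, against the same shares of all genes. No marker was at 0 in every library, but 4 T and NK cell, 3 stromal cell and adipocyte, 2 erythroid and 1 megakaryocyte markers were at 0 in some library. Only 1 marker in each of the T and NK, dendritic and stromal lists, and 2 in the erythroid list, met the minimum level. The neutrophil sum exceeded the monocyte sum in every library, although the labels name monocytes. The part of these cell types in the differences below was not tested, and in bulk RNA fewer cells of a type and less RNA per cell cannot be told apart.

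Of the 8 mevalonate genes, 7 had positive differences, with a median of 0.66. Pmvk, phosphomevalonate kinase, which adds the second phosphate to mevalonate, was at 12.2, 8.16 and 10.9 FPKM in G-CSF libraries, against 3.89 and 3.37 FPKM in controls. The lowest G-CSF library was thus well above the higher control, and the controls differed little. The difference was 1.29 ± 0.26 (SE), the largest of the 29, with a limma adjusted p of 0.248. Taken from each control by itself, it was 1.21 (replicate 1) and 1.37 (replicate 2). The G-CSF values rest on 136 to 180 reads and the control values on 62 and 20.

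Fdps, farnesyl diphosphate synthase, which joins isoprenoid units into the precursor of squalene, was at 17.4, 17.9 and 15.2 FPKM with G-CSF, against 8.20 and 9.25 FPKM without. Every G-CSF library exceeded both controls by a margin wider than the spread within either group. The difference was 0.87 ± 0.23 (SE; limma adjusted p = 0.292), and 0.95 and 0.80 against control replicates 1 and 2. Another gene model on the same strand, Gm43738, shares 1124 exon bases with Fdps, and how the authors counted shared reads is not known. Pmvk (chr3:89454541-89469013, plus strand) and Fdps (chr3:89093588-89101959, minus strand) lie 353 kb apart on GRCm38.

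Hmgcs1, the cytosolic synthase that makes HMG-CoA, was at 27.4, 22.6 and 25.7 FPKM with G-CSF, against 17.7 and 9.48 FPKM without. The groups did not overlap, but the controls stood 1.86-fold apart. The difference was 0.90 ± 0.33 (SE; limma adjusted p = 0.368), with 0.49 from control replicate 1 by itself and 1.32 from control replicate 2. An antisense transcript, Gm48342, shares 557 exon bases with Hmgcs1 and was at 15.5 to 19.2 against 8.05 to 12.5 FPKM, and since the counting is not stated to use strand, the reads of the pair cannot be told apart. Idi1, isopentenyl diphosphate isomerase, which interconverts the isoprenoid units, was at 14.2, 10.1 and 12.4 FPKM with G-CSF, against 8.56 and 3.05 FPKM without. Here control replicate 2 lay far below control replicate 1, and the difference of 1.08 ± 0.41 (SE; limma adjusted p = 0.383) was 0.46 against control replicate 1 and 1.70 against control replicate 2. The processed pseudogene Idi1-ps1 was listed at 16.2, 9.92 and 10.6 FPKM with G-CSF, against 7.08 and 2.11 FPKM without, close to Idi1 in each library, so the split of reads between them is uncertain.

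The other mevalonate genes differed less. Mvk, mevalonate kinase, was at 4.96, 5.54 and 6.95 FPKM with G-CSF, against 3.78 and 4.64 FPKM without, with no overlap and a difference of 0.38 ± 0.25 (SE). Acat2, the cytosolic thiolase that starts the branch, was at 3.73 to 4.81 against 3.76 and 2.04 FPKM, so that its lowest G-CSF library lay just under the higher control. Ggps1, which makes geranylgeranyl diphosphate for protein prenylation, was at 2.46 to 2.89 against 3.10 and 0.855 FPKM, with the controls on either side of the G-CSF libraries. Mvd, mevalonate diphosphate decarboxylase, was the 1 gene of these steps with a negative difference, -0.12 ± 0.24 (SE), at 21.4 to 25.0 FPKM with G-CSF, against 25.2 and 24.4 FPKM without, so that the groups overlapped. Summed over the 8 mevalonate genes, the level was 105, 96.6 and 99.1 FPKM in G-CSF libraries, against 74.1 and 57.0 FPKM in controls.

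Ebp, the sterol isomerase that moves the ring double bond, was at 12.8, 12.2 and 15.9 FPKM with G-CSF, against 8.43 and 8.24 FPKM without. Its controls were nearly equal and all G-CSF libraries lay well above them, a difference of 0.64 ± 0.24 (SE; limma adjusted p = 0.376) that was 0.63 and 0.65 against control replicates 1 and 2. Fdft1, squalene synthase, which commits farnesyl diphosphate to sterols, was at 16.6, 15.8 and 15.7 FPKM with G-CSF, against 9.88 and 12.3 FPKM without (0.50 ± 0.24, SE; limma adjusted p = 0.436). The gene model of Fdft1 shares 774 exon bases with the abundant cathepsin gene Ctsb on the opposite strand, which was at 577 to 725 FPKM with G-CSF, against 390 to 441 FPKM without, so reads of Ctsb may stand in the Fdft1 value.

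Among the demethylation enzymes, Msmo1, the methylsterol oxidase, was at 10.0, 9.39 and 9.09 FPKM with G-CSF, against 7.26 and 4.23 FPKM without, with no overlap (0.67 ± 0.28, SE; limma adjusted p = 0.400). Nsdhl, the dehydrogenase that acts after Msmo1, was at 4.32, 2.20 and 4.64 FPKM with G-CSF, against 2.19 and 0.809 FPKM without (0.93 ± 0.39, SE; limma adjusted p = 0.402), a larger difference than those of Hmgcs1 and Fdps. The groups of Nsdhl were separate only by the margin between G-CSF replicate 2 and control replicate 1, which rest on 61 and 58 reads, and control replicate 2 holds 8 reads. Cyp51, the lanosterol demethylase, was at 12.7 to 14.1 FPKM with G-CSF, against 8.53 and 13.3 FPKM without, a difference of 0.58 against control replicate 1 and -0.01 against control replicate 2. Dhcr7, which makes cholesterol from 7-dehydrocholesterol, was at 3.50, 3.80 and 5.26 FPKM with G-CSF, against 3.29 and 2.43 FPKM without (0.42 ± 0.26, SE), the groups just apart.

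Sqle, squalene epoxidase, a rate-limiting step of the branch, was at 10.7, 8.77 and 11.5 FPKM with G-CSF, against 6.23 and 12.2 FPKM without. All G-CSF libraries lay between the controls, so the difference was 0.64 against control replicate 1 and -0.23 against control replicate 2. Lss, which closes the sterol ring, behaved alike, at 2.61 to 2.80 against 1.99 and 3.29 FPKM, with 0.29 and -0.22 against control replicates 1 and 2. An antisense transcript shares 381 exon bases with Lss. Sc5d, a sterol desaturase, showed the opposite order of the controls, at 5.21 to 5.27 FPKM with G-CSF, against 5.48 and 1.96 FPKM without. Tm7sf2, a sterol reductase, had the most negative difference of the 29, -0.48 ± 0.41 (SE; limma adjusted p = 0.616), from 2.38, 2.62 and 2.82 FPKM with G-CSF, against 2.22 and 6.88 FPKM without. That sign rests on control replicate 2, since the value was 0.16 without it, and 532 exon bases of Tm7sf2 are shared with Vps51. Hsd17b7, a sterol ketoreductase, was at 2.96 to 3.53 FPKM with G-CSF, against 3.58 and 3.56 FPKM without, a difference of -0.11 ± 0.22 (SE). Summed over the 11 genes from squalene on, the level was 85.5, 78.8 and 88.7 FPKM with G-CSF, against 59.1 and 69.2 FPKM without.

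**Figure D2:**
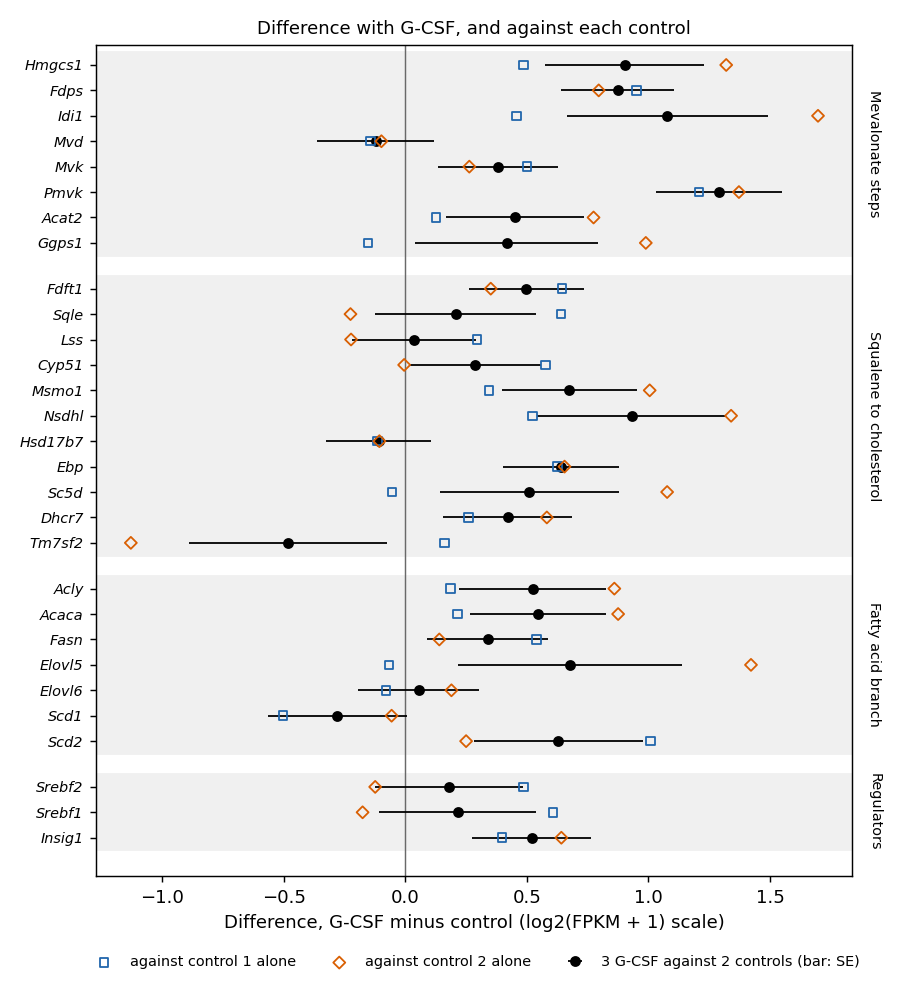
Difference of the 3 G-CSF libraries from the 2 controls on the log2(FPKM + 1) scale for each gene (black circle, bar for the standard error) and from each control alone (open square for control 1, open diamond for control 2). Pmvk, Fdps, Ebp and Insig1 lie to the right of 0 against either control, while Sqle, Lss, Srebf1 and Srebf2 lie on opposite sides of 0.

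In the fatty acid branch, Acly and Acaca supply the substrate. Acly, ATP citrate lyase, which makes the cytosolic acetyl-CoA used by both branches, was at 35.4, 37.5 and 37.9 FPKM with G-CSF, against 32.3 and 19.9 FPKM without (0.52 ± 0.30, SE; limma adjusted p = 0.489). The groups did not overlap, and the difference was 0.19 from control replicate 1 by itself and 0.86 from control replicate 2. Acaca, acetyl-CoA carboxylase, which commits acetyl-CoA to fatty acids, was at 3.04, 3.49 and 2.97 FPKM with G-CSF, against 2.58 and 1.27 FPKM without (0.54 ± 0.28, SE). Fasn, the synthase that assembles palmitate, was at 13.1, 15.0 and 13.8 FPKM with G-CSF, against 9.30 and 12.6 FPKM without (0.34 ± 0.25, SE; limma adjusted p = 0.570). For Fasn it was control replicate 1 that lay lower, and its lowest G-CSF library stood close above control replicate 2.

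The desaturases and elongases were each dominated by 1 of a pair. Scd2, the stearoyl-CoA desaturase of many tissues outside the liver, was at 29.9, 20.9 and 31.1 FPKM with G-CSF, against 12.9 and 22.4 FPKM without (0.63 ± 0.35, SE; limma adjusted p = 0.476). G-CSF replicate 2 lay below control replicate 2, and the difference was 1.01 against control replicate 1 and 0.25 against control replicate 2. Scd1, its neighbour 87.6 kb away on chromosome 19, was at 0.666, 0.778 and 1.20 FPKM with G-CSF, against 1.65 and 0.943 FPKM without, a difference of -0.28 ± 0.29 (SE). Scd1 passed the minimum level through only 1 library of each group and rests on 16 to 75 reads a library. Scd2 exceeded Scd1 by 44.9, 26.8 and 25.8-fold in the G-CSF libraries, against 7.80 and 23.8-fold in the controls, so the ratio was higher in every G-CSF library, although G-CSF replicate 3 was close to control replicate 2. These paralogs are alike in sequence, and the way shared reads were counted is not known.

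Elovl5, which lengthens polyunsaturated fatty acids, was at 11.1, 8.70 and 9.75 FPKM with G-CSF, against 10.3 and 3.03 FPKM without. Control replicate 1 lay among the G-CSF libraries, and the difference of 0.68 ± 0.46 (SE) became -0.07 without control replicate 2. Elovl6, which lengthens palmitate, was at 0.864 to 1.04 FPKM with G-CSF, against 1.07 and 0.718 FPKM without, a difference of 0.05 ± 0.25 (SE). Elovl6 turned to -0.07 both with TPM rescaling and with quantile normalization, and it was near the minimum level in every library. Summed over the 7 fatty acid genes, the level was 94.2, 87.2 and 97.7 FPKM with G-CSF, against 70.1 and 60.9 FPKM without.

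Srebf2 was the most abundant of the 29 genes. It was at 47.2, 53.3 and 48.7 FPKM with G-CSF, against 35.2 and 54.2 FPKM without, a difference of 0.18 ± 0.30 (SE; limma adjusted p = 0.808). Srebf1 was at 15.6, 20.3 and 18.6 FPKM with G-CSF, against 11.5 and 20.5 FPKM without (0.22 ± 0.32, SE; limma adjusted p = 0.783). For both factors control replicate 2 lay above, and control replicate 1 below, every G-CSF library. The ratio of Srebf2 to Srebf1 was nearly constant, at 2.62 to 3.02 with G-CSF and 3.06 and 2.64 without. Insig1, itself an SREBP target, was at 24.2, 20.6 and 23.3 FPKM with G-CSF, against 17.0 and 14.2 FPKM without, with all G-CSF libraries above both controls (0.52 ± 0.24, SE; limma adjusted p = 0.434).

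**Figure D3:**
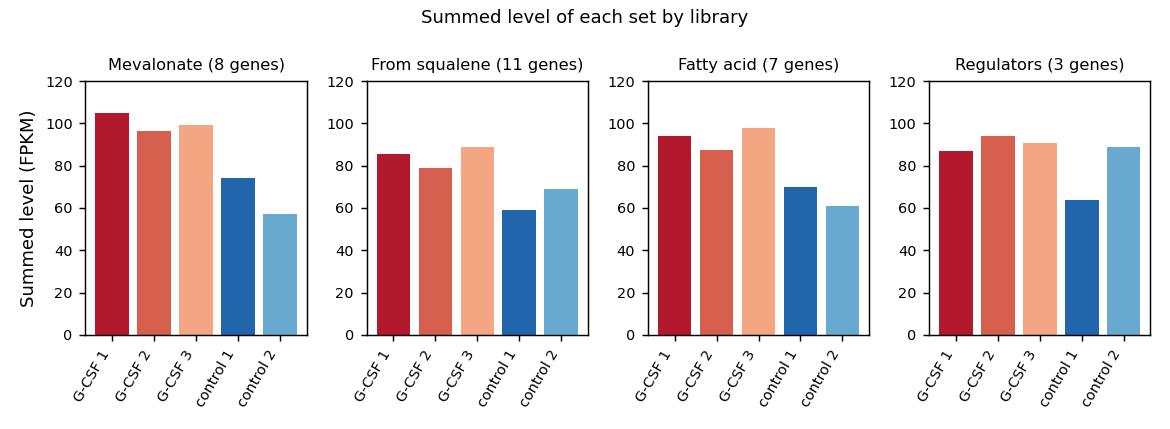
Summed FPKM of the mevalonate genes, the genes from squalene on, the fatty acid genes and the regulators in each library, from 0. For the first 3 sets every G-CSF library lies above both controls (lowest G-CSF sums 96.6, 78.8 and 87.2 FPKM; highest control sums 74.1, 69.2 and 70.1 FPKM), while for the regulators control replicate 2, at 89.0 FPKM, lies among the G-CSF libraries at 87.0 to 94.2 FPKM.

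The gap between the controls was not the same for all members and moved with base composition. In 18 of the 29 genes control replicate 2 was lower than control replicate 1, and in 11 it was higher. It was lower in 9397 of all 16791 genes tested and in 5858 of 10524 protein-coding ones. Elovl5 in control replicate 2 was 0.294 times its level in control replicate 1 (95% exact interval 0.203 to 0.413, counting error only), and Ggps1 0.276 times (0.147 to 0.479). Tm7sf2, in contrast, was 3.09 times as high (2.31 to 4.14) and Sqle 1.96 times (1.64 to 2.32). Ebp, Mvd and Hsd17b7 had ratios of 0.978, 0.968 and 0.994, with intervals that included 1. Across the 29 genes the gap correlated with the GC content of the transcripts (Pearson r = 0.63, Spearman rho = 0.63, across genes of the same 2 libraries, as a description). Across 10245 protein-coding genes the values were 0.36 and 0.38. The G-CSF minus control difference had a Spearman rho with GC content of -0.33 across the 29 genes and -0.20 across the protein-coding genes. Of the 10 genes with the lowest GC content (41.1 to 46.6%), 9 were lower in control replicate 2, and of the 10 with the highest (52.3 to 59.4%), 6 were higher.

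**Figure D4:**
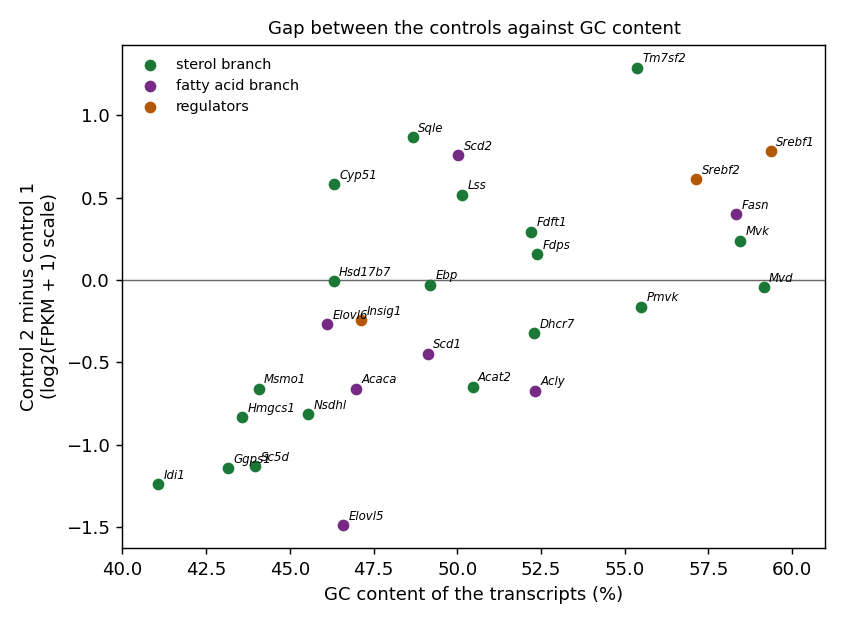
Difference of control replicate 2 from control replicate 1 on the log2(FPKM + 1) scale against the GC content of each gene's transcripts, for the 29 genes, coloured by branch. Idi1, Ggps1, Sc5d and Hmgcs1 at the low end lie below 0, and Srebf1, Srebf2 and Fasn at the high end lie above it.

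When a smooth trend on GC content was removed from each library, an alternative added after the data were seen, the median difference was 0.44 in the sterol branch and 0.49 in the fatty acid branch, close to the values without it. The G-CSF libraries then lay above both controls in 17 genes (11 sterol, 3 fatty acid and 3 regulators) and below them in 0, against 22.3% and 12.3% of 15410 genes. Srebf2 and Srebf1 no longer overlapped between groups, with differences of 0.30 ± 0.23 and 0.41 ± 0.21 (SE), and none of the 29 passed, where 0.0324% of genes were called higher and 0.00649% lower (limma adjusted p = 0.561 for Srebf2 and 0.417 for Srebf1). Pmvk, Fdps and Ebp kept differences of 1.36, 0.87 and 0.56. The correction narrowed the gap between the controls in some genes and widened it in others. Corrected log2 values of control replicates 1 and 2 were 5.34 and 5.49 for Srebf2 and 3.89 and 3.96 for Srebf1. For Mvd they were 4.95 and 4.21, and for Sqle 2.80 and 3.88. Uncorrected gaps (replicate 2 minus replicate 1) of these genes were 0.61, 0.78, -0.05 and 0.87.

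Calls differed with the control used. Without control replicate 1, a fit in which the lone control is assumed to vary like the G-CSF libraries, 12 of the 29 genes passed an adjusted p of 0.05. They were Hmgcs1, Fdps, Idi1, Pmvk, Acat2, Ggps1, Msmo1, Sc5d, Acly, Acaca and Elovl5, higher with G-CSF, and Tm7sf2, lower, against 16.1% of all genes called higher and 11.9% called lower in that fit. Without control replicate 2 none of the 29 passed, and 0 of all genes tested did in limma, where an unadjusted p under 0.05 was reached by 1796 genes upward and 1316 downward. Taking each control alone, 16 of the 29 genes were positive against both, 11 of 19 in the sterol branch, 4 of 7 in the fatty acid branch and 1 of 3 regulators, against 32.7% of all genes tested and 36.2% of protein-coding ones.

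Promoter sequence was then set beside the levels. RefSeq start-site windows (GRCm38.p6, 250 bases before to 50 after a start) were found for 24 of the 29 genes, in 29 windows. They were searched on both strands for TCACNCCAC (a form of the sterol regulatory element bound by SREBP), CCAAT (the NF-Y box), GGGCGG (the Sp1 box) and CACGTG (the E-box). TCACNCCAC was found in 1 gene, Hmgcs1, or 3.45% of windows, against 1.24% of all 32851 windows. CCAAT was found in 22 of the 29 windows (75.9%), against 37.4% of all windows and 37.6% of windows of protein-coding genes, and in 15 of the 16 sterol genes with a window, 3 of 5 fatty acid genes and all 3 regulators. GGGCGG was found in 69.0% of the windows, against 35.7% of all and 54.3% of protein-coding ones, and CACGTG in 17.2%, against 7.15% and 8.69%. A match describes letters in the window and not a bound site.

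The 250 bases before the start site are shown for Hmgcs1, whose window held the 1 match to TCACNCCAC, for Pmvk, the gene with the largest difference, and for Fasn, the central enzyme of the fatty acid branch (the last pair was chosen after values were seen). Capitals mark matches to the 4 motifs on either strand. They lie at chr13:119690101-119690350 (plus strand) for Hmgcs1, chr3:89454291-89454540 (plus strand) for Pmvk and chr11:120824548-120824797 (minus strand) for Fasn, and all are read 5′ to 3′ on the strand of the gene.
Hmgcs1: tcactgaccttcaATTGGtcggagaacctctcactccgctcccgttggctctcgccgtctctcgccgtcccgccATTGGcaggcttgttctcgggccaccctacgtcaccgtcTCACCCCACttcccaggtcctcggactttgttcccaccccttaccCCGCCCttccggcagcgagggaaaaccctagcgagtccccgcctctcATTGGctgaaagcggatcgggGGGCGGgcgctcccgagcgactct
Pmvk: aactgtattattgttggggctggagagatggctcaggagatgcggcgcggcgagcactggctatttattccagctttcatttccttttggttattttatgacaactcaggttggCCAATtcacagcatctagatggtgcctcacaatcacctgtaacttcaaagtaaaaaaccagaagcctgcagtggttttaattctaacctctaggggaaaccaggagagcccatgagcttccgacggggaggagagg
Fasn: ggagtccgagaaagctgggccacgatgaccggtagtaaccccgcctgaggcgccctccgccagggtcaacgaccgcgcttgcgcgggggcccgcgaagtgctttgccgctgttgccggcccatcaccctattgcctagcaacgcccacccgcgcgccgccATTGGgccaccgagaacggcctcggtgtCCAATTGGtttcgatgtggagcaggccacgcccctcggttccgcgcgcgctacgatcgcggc
In Hmgcs1 the match to TCACNCCAC begins 137 bases before the start, with 3 CCAAT boxes and 2 GGGCGG boxes in the stretch. The stretch of Pmvk, before the first of its 2 annotated starts, holds 1 CCAAT box and none of the other motifs. Fasn holds 3 CCAAT boxes, 2 of them overlapping on opposite strands.

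Further genes of the pathways, which are not among the 29, were set against the shares of all genes tested, which were 56.3% positive with a median of 0.08, with an unadjusted p under 0.05 for 7.90% upward and 4.76% downward. Of 11 tested sterol genes of 13 listed, 8 were positive with a median of 0.15, and 0 passed in limma, while an unadjusted p under 0.05 was reached by 1 upward and 0 downward. Their differences ran from -0.54 to 0.89, with 2 genes above both controls and 2 below them, against 20.0% and 11.9% of all genes tested. The smallest adjusted p was 0.309, for a gene that is not described here. The electron carrier Por, which serves Cyp51 and Sqle and was the most abundant, was at 56.3 to 64.9 FPKM with G-CSF, against 59.2 and 55.2 FPKM without. Fdxr and Pdss2, a mitochondrial ferredoxin reductase and a subunit of the enzyme that makes the ubiquinone tail, had differences of -0.54 ± 0.28 and -0.40 ± 0.24 (SE), with all G-CSF libraries below both controls (limma adjusted p = 0.455 and 0.501). Of 22 tested fatty acid genes of 26 listed, 12 were positive with a median of 0.10, and 0 passed in limma, while 3 reached an unadjusted p under 0.05 upward and 1 downward. Of these 22, 6 lay above both controls and 2 below them, against the 20.0% and 11.9% of all genes. Hsd17b12, an enzyme of the elongation cycle, was at 20.2, 11.4 and 16.1 FPKM with G-CSF, against 8.67 and 6.47 FPKM without (0.96 ± 0.32, SE; limma adjusted p = 0.347). The acyl-CoA synthetases Acsl5 and Acsl4, which activate fatty acids, had differences of 0.93 ± 0.37 and 1.08 ± 0.44 (SE), both with no overlap, while Agpat3, an acyltransferase of phospholipid synthesis, had -0.70 ± 0.27 (SE; limma adjusted p between 0.383 and 0.394 for these 3). Dgat1, which makes triglyceride, was at 25.7 to 47.4 FPKM with G-CSF, against 59.4 and 39.5 FPKM without.

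Of 22 tested genes of 24 listed that control SREBP or answer to sterol, 16 were positive with a median of 0.24, and 0 passed in limma, while 2 reached an unadjusted p under 0.05 upward and 1 downward. All genes tested were 56.3% positive with a median of 0.08, with 7.90% upward and 4.76% downward at that unadjusted limma p. Of these 22 genes, 8 lay above both controls and 3 below them, against 20.0% and 11.9% of all genes. The cholesterol exporters had differences of opposite sign: Abca1 was at 38.5, 26.3 and 40.9 FPKM with G-CSF, against 16.9 and 11.5 FPKM without (1.25 ± 0.33, SE; limma adjusted p = 0.286), and Abcg1 at 11.1, 15.1 and 11.3 FPKM with G-CSF, against 18.1 and 37.0 FPKM without (-1.01 ± 0.37, SE; limma adjusted p = 0.368). Neither overlapped between groups. Stard4, a cytosolic sterol carrier and SREBP target, had a difference of 0.75 ± 0.28 (SE; limma adjusted p = 0.381), above both controls in every G-CSF library. Npc2, a lysosomal cholesterol carrier and the most abundant of these genes, was at 52.4 to 81.9 FPKM with G-CSF, against 38.5 and 88.1 FPKM without, with overlap.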

How the data were processed

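The authors deposited 1 table of FPKM values for 5 bulk libraries, per the file headers, and 0 of its columns were left unused. Per the submitters' processing notes the build was mm10, and the tool named, Cell Ranger 5.0.1, is one for single cells. Aligner, counter, annotation and strand setting are not given in the sources used here. FPKM multiplied by the exon length of GENCODE M21 (GRCm38) came out whole, to a tolerance of 0.001 reads, for 94.3% of the 30062 rows (89.6%) whose symbol matched, which gave the read numbers and a lower bound of depth. Fdft1 was the 1 member without them.

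Log2(FPKM + 1) was fitted with limma 3.58.1 (R 4.3.3, trended empirical Bayes, two-sided) on 3 residual degrees of freedom, and the fit was tested on simulated data. The pseudocount of 1 understates differences of low genes. No replicates agreed within sampling noise (chi-square over degrees of freedom 7.11 to 99.2). Intervals of read ratios are exact and cover counting error only. Coordinates and GC content follow GENCODE M21, and promoters follow RefSeq. The GC trend was a natural spline with 5 degrees of freedom.

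Alternatives were other pseudocounts, filters, scalings and variance models, a replicate block, voom, protein-coding genes only, and each library left out. The members and lists were chosen with earlier results of these data known. All 29 members are named, and of other pathway genes the up to 4 with the smallest p and the most abundant one in each list; some genes under that rule are not reported here. Python 3.11.15 with pandas 2.3.3, numpy 2.4.6, scipy 1.17.1 and matplotlib 3.10.9 did the rest.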

Additional observations from a re-analysis of the deposited data

How the results depend on the processing

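No member passed an adjusted p of 0.05 in any of the 19 alternatives except the fit without control replicate 1, and the smallest adjusted p in the others was 0.0692. The sign of 18 of the 29 members (12 sterol, 5 fatty acid, 1 regulator) was the same in every alternative that tested them. Of all genes, 1 was called higher and 0 lower. The higher count was 3 with a pseudocount of 0.1, 2 with a minimum of 5 FPKM, 2 without a trend and 0 with a pseudocount of 5, no filter, quantile normalization or median centring. Higher and lower counts were 30 and 3 for protein-coding genes only, 8 and 2 with voom, 5 and 1 with GC correction, and 113 and 53 for protein-coding genes without control replicate 2 (the GC correction and the last were chosen after seeing the data). Leaving out 1 library at a time gave 0 to 2698 higher and 0 to 2002 lower, the high end being without control replicate 1.

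The sterol median of 0.45 was 0.58 with a pseudocount of 0.1, 0.23 with 5 and 0.58 with a minimum of 5 FPKM, and 0.46 to 0.65 leaving out 1 library. The fatty acid median of 0.52 was 0.26 with a pseudocount of 5, 0.37 with quantile normalization, and 0.19 to 0.55 leaving out 1 library, with 0.19 also for protein-coding genes without control replicate 2. The median of all genes was 0.08, against -0.09 with no filter, 0.22 with a minimum of 5 FPKM, and 0.05 to 0.19 leaving out 1 library.

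Mvd turned to 0.0907 with TPM rescaling and 0.0615 with GC correction. Lss turned to -0.0164 with median centring and -0.0260 with GC correction. Elovl6 turned to -0.0652 with TPM rescaling, -0.0750 with quantile normalization and -0.0454 with GC correction. Leaving out 1 library moved Sqle between -0.23 and 0.64, Lss between -0.22 and 0.29, Cyp51 between -0.00520 and 0.58, Srebf2 between -0.12 and 0.49 and Srebf1 between -0.18 and 0.61, negative without control replicate 1. It moved Ggps1 between -0.15 and 0.99, Sc5d between -0.0559 and 1.08, Elovl5 between -0.0685 and 1.42, Elovl6 between -0.0801 and 0.19 and Tm7sf2 between -1.13 and 0.16, and these 5 turned without control replicate 2, to -0.154, -0.0559, -0.0685, -0.0801 and 0.160, also among protein-coding genes alone. The cause of these changes was not tested.

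Replicate numbers were not shown to pair the samples, and the labels state no link. Same-numbered libraries had correlated deviations of -0.07 and -0.23. Deviations of the 2 controls from their mean mirror each other, so G-CSF replicates 1 and 2 had 0.07 and 0.23 with the other control. These values therefore cannot decide on pairing. With the replicate block 0 genes were called higher and 0 lower (564 and 359 at an unadjusted limma p under 0.05), the sterol median was 0.51 and the fatty acid median 0.50. Recovered reads were fewest in control replicate 2 (2923773).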

Other observations

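The remaining stearoyl-CoA desaturase genes of the table, chosen after their values were seen, were near 0. Scd3 was at most 0.244 FPKM and Scd4 at most 0.459 FPKM in any library, the highest value of both being in control replicate 2. A second pseudogene of Idi1, Idi1-ps2, was at most 0.474 FPKM, in contrast to Idi1-ps1, which reached 16.2 FPKM. The antisense transcript 4930483K19Rik, which shares 381 exon bases with Lss, was at 4.32 to 4.65 FPKM with G-CSF, against 2.35 and 6.30 FPKM without, and like Lss it had all G-CSF libraries between the controls. Since the counting is not stated to use strand, the reads of this pair cannot be told apart.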
